A study of Mus musculus with 12 samples.

Results

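The mitochondrial ribosomal protein genes of mouse kidney are described here across 12 RNA sequencing libraries. They were taken as every row of the deposited gene table whose symbol starts with Mrpl or Mrps and a digit, with pseudogene symbols left out. This gave 78 of 21004 genes, 49 with an Mrpl symbol (large subunit) and 29 with an Mrps symbol (small subunit). All kidneys came from ICR mice, an outbred strain, at 8 weeks of age, and each of 4 groups held 3 libraries. The groups were a control without either agent named, busulfan, both agents with L.J. at 10 mg/kg, and L.J. at 10 mg/kg by itself. Busulfan, a chemotherapy agent, alkylates and crosslinks DNA. The labels do not define L.J., which appears as Lu in the sample titles, and the design text speaks of FMT effects on a kidney damaged by busulfan. The labels give no busulfan dose, no sex and no time after treatment, and do not say whether replicates are different mice, so that p-values measure only the spread between these libraries.

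The mitochondrial ribosome translates the messages of the mitochondrial genome, whose protein products are subunits of the oxidative phosphorylation complexes. Its RNA is encoded in the mitochondrion, whereas all of its proteins are encoded in the nucleus, made in the cytosol and imported. The large subunit joins amino acids into the peptide chain and the small subunit reads the codons. The kidney tubule, above all the proximal tubule, is rich in mitochondria because it pays for solute transport with ATP.

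The values are FPKM, fragments scaled to transcript length and to library size, and they summed to between 481937 and 541844 per library. Read totals were not given. Relative depth came out between 0.946 and 1.054 from 350 genes of low value. Only genes with similar non-zero values across libraries were used, so that a large difference in depth could not have shown. Markers of the kidney tubule were present in every library, with none of the 8 proximal tubule markers at 0 and a summed level of 3804 to 5449 FPKM. The 5 adrenal markers together reached at most 2.96 FPKM. The third busulfan library stood apart from the first and second. Its rank correlation over genes with them was 0.954 and 0.95, whereas the first and second correlated at 0.987. Across all tested genes its difference from the mean of all 12 libraries went against transcript length (Spearman rho -0.52). In the other 11 libraries rho lay between -0.07 and 0.32. The counts of the busulfan comparisons and many of their named genes are therefore also given without this library. Genes that reached 1 FPKM in 3 or more libraries were tested, which kept 12281 genes and all 78 members.

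Most members were expressed at moderate levels, with similar medians for the large and small subunit genes but wide differences between single members. The mean over the 12 libraries was at least 100 FPKM for 4 members, between 10 and 100 FPKM for 70, and below 10 FPKM for 4. The median of these means was 34.9 FPKM for the large and 33.7 FPKM for the small subunit genes. The highest was Mrpl42, a large subunit protein without a bacterial counterpart, at 193 FPKM with a range of 154.61 to 228.57 FPKM. Mrps21, a small subunit protein of bacterial descent, reached 174 FPKM with a range of 152.33 to 218.93 FPKM. The ranges of these genes overlapped over most of their width. Mrpl12, whose product forms the flexible stalk that recruits translation factors, followed at 131 FPKM. Mrps36 had a mean of 101 FPKM. Its protein is now known as a subunit of the 2-oxoglutarate dehydrogenase complex and not of the ribosome.

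The lowest member was Mrpl19, at 3.9 FPKM with a range of 3.49 to 4.6 FPKM. Mrpl17 and Mrpl57 had means of 7.4 and 8.1 FPKM, and Mrps25 was the lowest small subunit gene at 7.73 FPKM. Mrps27, a pentatricopeptide repeat protein of the small subunit, was next at 11.8 FPKM. The longest annotated transcripts of Mrpl17 and Mrps25 are long for the family, at 7300 and 6073 bp. The median member has 1327 bp and the median tested gene 3046 bp.

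**Figure D1:**
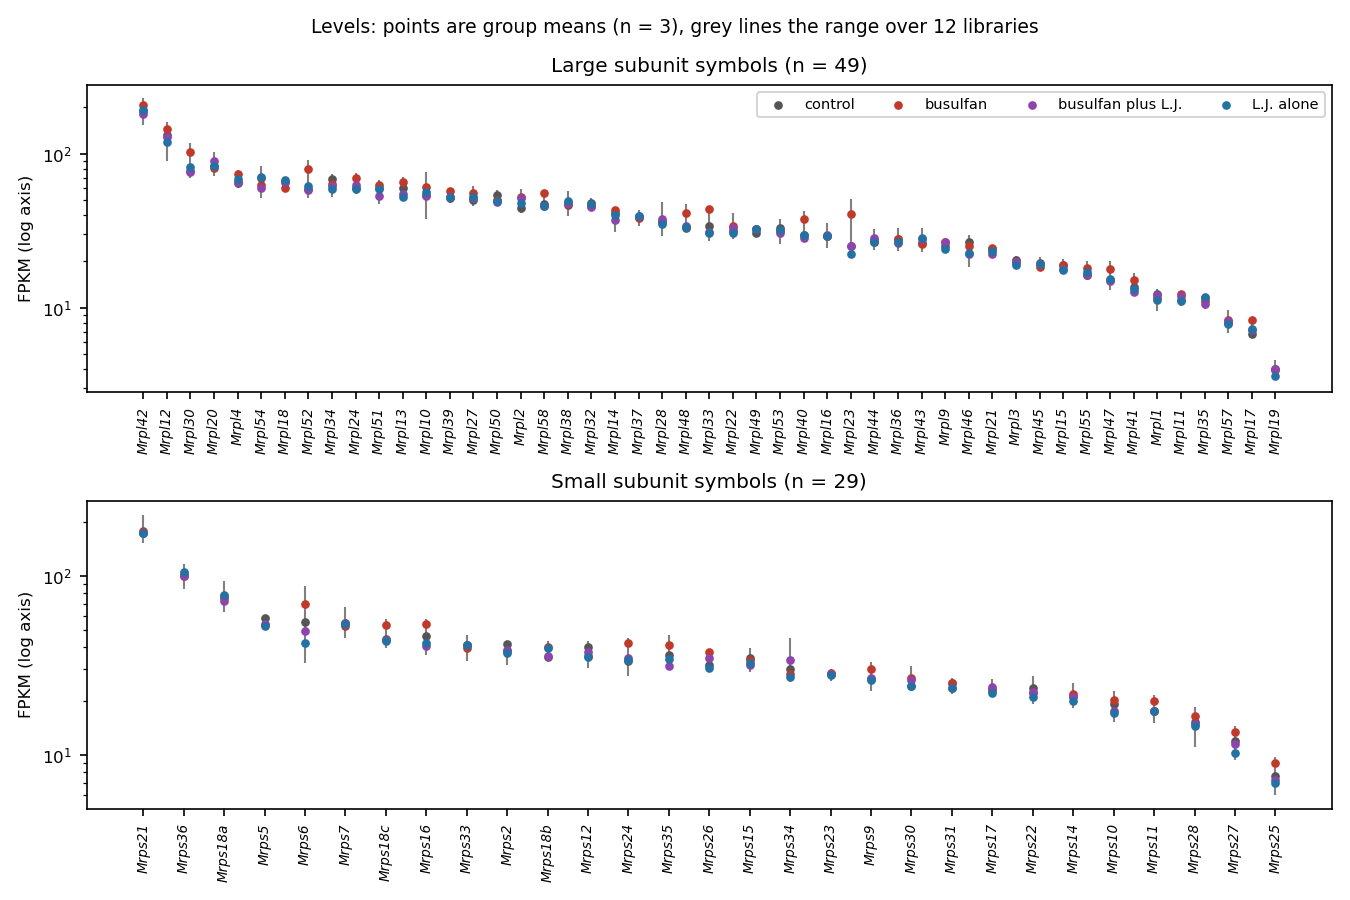
Level of each member in FPKM on a log axis, ordered by its mean over the 12 libraries, with the large subunit symbols above and the small subunit symbols below. Coloured points are group means of 3 libraries and grey lines span all 12 libraries. Most members lie between 10 and 100 FPKM with group means close together, and Mrpl23 is the large subunit gene whose busulfan mean is farthest above the rest.

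By function, the genes next to the peptidyl transferase centre differed in level, with 49.3 FPKM for Mrpl2 and 19.9 FPKM for Mrpl3. At the stalk and its base, Mrpl10 had 56.1 FPKM and Mrpl11 had 11.6 FPKM, against the 131 FPKM of Mrpl12. Mrpl45, which anchors the ribosome at the inner membrane, had 19.1 FPKM. Mrpl44, which carries a fold like that of RNase III, had 27.4 FPKM. Mrpl58, a peptidyl-tRNA hydrolase that became part of the large subunit, had 48.4 FPKM. Among the genes around the decoding site, Mrps5 had 54.3 FPKM, Mrps7 had 53.8 FPKM and Mrps12 had 37.1 FPKM. The 3 Mrps18 paralogs had 75.4 FPKM (Mrps18a), 37.6 FPKM (Mrps18b) and 46.2 FPKM (Mrps18c). In structures the product of Mrps18a sits in the large subunit, as does that of Mrps30 (25.5 FPKM) despite its symbol.

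Summed over the large subunit genes, the level was 2064.2 ± 83.5 FPKM in control, 2228 ± 94.5 with busulfan, 2021.6 ± 75.5 with both agents and 2037.6 ± 55.3 with L.J. alone (mean ± SD, n = 3 libraries each). The 3 busulfan sums (2147.8, 2204 and 2332.2 FPKM) lay above all 9 others, of which the highest was 2130.5 FPKM. The small subunit sums were 1177.5 ± 47.3, 1227.8 ± 74.7, 1145.6 ± 46.2 and 1133.8 ± 55.1 FPKM in the same order. Here the groups overlapped, and the busulfan group spanned 1182.8 to 1314.1 FPKM. The ratio of the large to the small subunit sum stayed between 1.74 and 1.86 in the 12 libraries. The members made up 0.673 to 0.692% of all FPKM in the busulfan libraries and 0.624 to 0.662% in the other 9 libraries.

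Gene by gene, the family moved little as a whole. Against the control mean, on the log2(FPKM + 1) scale, the median large subunit gene stood at 0.01, 0.01 and 0.17 in the 3 busulfan libraries, and the median small subunit gene at -0.02, 0.03 and 0.08. The median of all tested genes stood at 0.13, 0.17 and -0.03 in the same libraries. So in the first and second busulfan library the members lay below the median tested gene, and in the third above it. The 77 cytosolic ribosomal protein genes had medians of 0.64, 0.95 and 0.21 in these libraries, and lay between -0.08 and 0.04 in the other 9. Whether the cytosolic and mitochondrial sets differed was not tested.

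In the busulfan plus L.J. libraries the large subunit medians were -0.09, -0.01 and 0.02 and the small subunit medians -0.05, -0.05 and 0.02. In the libraries with L.J. alone they were 0.0, 0.03 and -0.07 for the large and -0.11, 0.0 and -0.11 for the small subunit. The control libraries themselves spread from -0.05 to 0.05. Each of them is part of the control mean, so that this spread is a narrow yardstick for the other groups. Small subunit medians below it were those of L.J. alone replicates 1 and 3 (-0.11 each). Large subunit medians below it were those of busulfan plus L.J. replicate 1 (-0.09) and L.J. alone replicate 3 (-0.07). Busulfan replicate 3 lay above it, at 0.17 for the large and 0.08 for the small subunit. After each library was corrected for its trends with transcript length and GC content, the 3 busulfan libraries had large subunit medians of -0.13, -0.18 and 0.05 and small subunit medians of -0.21, -0.16 and 0.01.

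**Figure D2:**
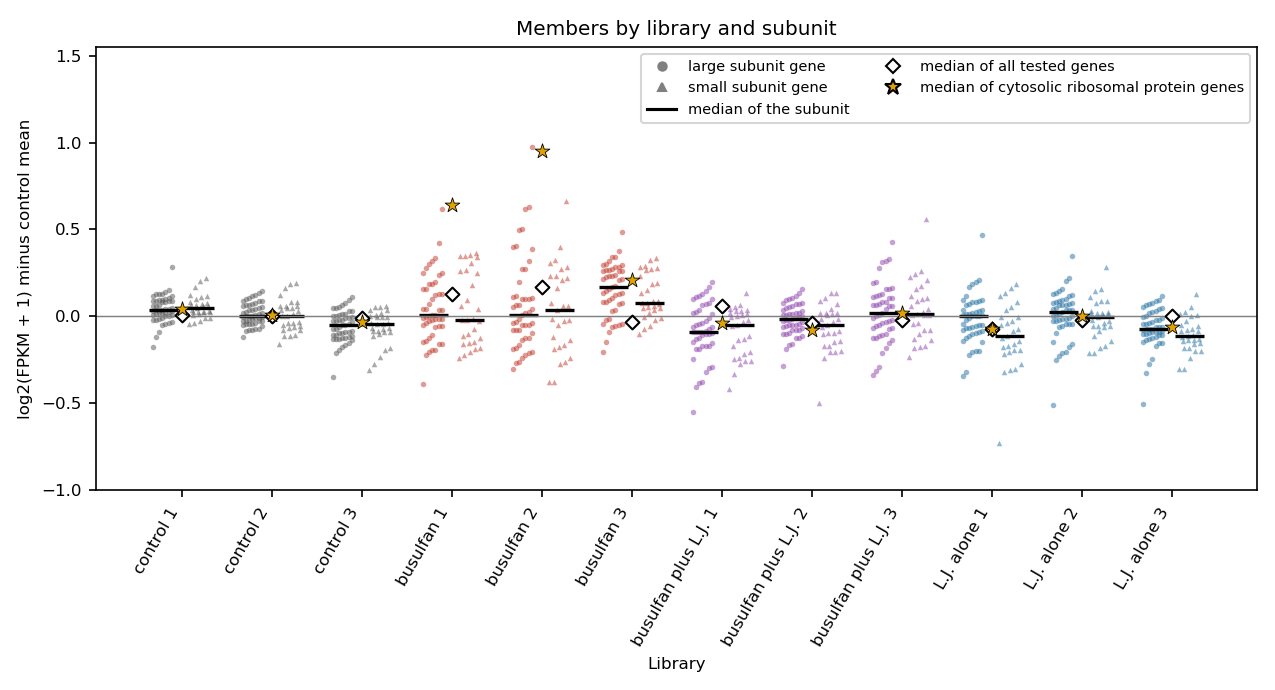
Each of the 78 members in each library as log2(FPKM + 1) minus the control mean, with circles for large and triangles for small subunit genes and a black bar at the median of each subunit. Open diamonds mark the median of all tested genes and stars the median of 77 cytosolic ribosomal protein genes. The mitochondrial medians stay between -0.11 and 0.17 in every library, while the stars reach 0.64 and 0.95 in the first and second busulfan library.

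The members were also steady within groups. The median within-group SD on the log2 scale was 0.08 for members and 0.1 for all tested genes in control, 0.13 and 0.22 in busulfan, 0.12 and 0.14 in busulfan plus L.J., and 0.09 and 0.11 in L.J. alone. For the 8686 genes within the members' range of levels these SDs were 0.09, 0.21, 0.13 and 0.1 in the same order. The ratio of a gene's highest to its lowest library had a median of 1.42 for members and 1.7 for all tested genes.

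Busulfan against control asks what the drug changed in the kidney. Of the 78 members, 1 rose and none fell at an adjusted p under 0.05 (limma on log2(FPKM + 1), Benjamini-Hochberg over all 12281 genes), which is 1.28% of the members against 1.44% of all tested genes (0.725% higher and 0.717% lower). The gene that rose was Mrpl23, which lies at the mouth of the tunnel where the new peptide leaves the large subunit. The median change was 0.05 over all members, 0.06 for the large and 0.04 for the small subunit, against 0.08 over all tested genes, and the member median turned to -0.01 with quantile normalization and to -0.08 with the length and GC correction. In whole tissue, a change in the share of a cell type and a change of RNA per cell cannot be told apart.

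Mrpl23 (gene 19935, chr7:142532467-142540747 on the plus strand, mm10) had 25.4, 25.65 and 24.9 FPKM in the control libraries. The busulfan libraries had 39.4, 50.7 and 31.8 FPKM. All busulfan values lay above all controls, with the third library the least raised. The change was 0.64 on the log2 scale (SE 0.14, limma adjusted p = 0.0472). When the third busulfan library was left out, it was 0.8 with an adjusted p of 0.000572. The call was lost when any one of the other 11 libraries was left out, where the limma adjusted p lay between 0.0513 and 0.189, and the change shrank to 0.39 with the length and GC correction (adjusted p = 0.156). A single named pseudogene of Mrpl23 is annotated, and reads shared with it cannot be told apart here. Its nearest protein-coding neighbours did not show the same order of values. Tnnt3 was at or below 0.15 FPKM in all libraries, and Lsp1 had 5.54, 5.16 and 4.92 FPKM in control and 4.37, 6.11 and 8.09 FPKM in busulfan.

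The next members by p-value were also large subunit genes, and none of them passed the threshold. Mrpl52, found only in mitochondrial ribosomes, had 64.9, 56.9 and 54.9 FPKM in control and 79.2, 91.5 and 68.4 FPKM in busulfan. Its groups did not overlap, and the change was 0.42 (SE 0.11, limma adjusted p = 0.0736). Mrpl30, which has a bacterial counterpart, had 76.0, 82.3 and 72.0 FPKM in control and 91.3, 118 and 97.6 FPKM in busulfan. These values did not overlap either, with a change of 0.4 (SE 0.11, limma adjusted p = 0.0829). Mrpl40, another protein without a bacterial counterpart, had 29.0, 31.1 and 29.7 FPKM in control and 37.9, 42.8 and 32.9 FPKM in busulfan. The third busulfan library was again the lowest of the 3, and the change was 0.32 (SE 0.1, limma adjusted p = 0.092). With the length and GC correction the changes of Mrpl52, Mrpl30 and Mrpl40 were 0.05, 0.32 and 0.12 (limma adjusted p = 0.784, 0.131 and 0.48).

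On the lower side, no change was large. Mrps5 had 60.8, 55.4 and 57.8 FPKM in control and 49.5, 51.6 and 57.7 FPKM in busulfan, a difference of -0.13. Mrps12, whose product helps to read the codon, had 41.0, 39.2 and 39.8 FPKM in control and 34.5, 30.6 and 41.6 FPKM in busulfan. In both genes the third busulfan library fell within or above the controls while the first and second lay below. Mrpl50, a large subunit protein without a bacterial counterpart, had 57.8, 55.8 and 49.0 FPKM in control and 49.4, 49.6 and 51.7 FPKM in busulfan. The limma adjusted p-values of these genes were 0.352 for Mrps5, 0.433 for Mrps12 and 0.472 for Mrpl50. With the third busulfan library left out, the differences were -0.19, -0.29 and -0.12, with limma adjusted p-values of 0.0668, 0.0832 and 0.286.

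Of the 78 members, 12 had an unadjusted p under 0.05 and were higher, where 15.5% of all tested genes did so, and 0 were lower, where 7.15% did so. These counts depended on the setting. Without the third busulfan library they were 17 higher and 6 lower (33.1 and 11.2% of all tested genes), and with the length and GC correction 5 higher and 15 lower (9.73 and 11.3%). The groups did not overlap for 17 members (21.8%) with busulfan higher and for 1 (1.28%), Mrpl45, with busulfan lower, against 14.7 and 7.33% of all tested genes. When the third busulfan library was left out, these were 24 (30.8%) and 12 (15.4%) members, against 45.8 and 16.5% of all tested genes. The change was above 0 for 48 of 78 members and for 63.3% of all tested genes. It was above 0 for 40 members against 67.9% of all tested genes without the third busulfan library, and for 26 members against 50% with the length and GC correction. Splitting the 12 by subunit gave 9 large and 3 small subunit genes. Of the 46 members with a bacterial counterpart 7 were among them, and of the 32 without one 5 were.

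Without the third busulfan library, 32.5% of all tested genes were called, (24.4% higher and 8.12% lower), and 10 members (12.8%) were. The 9 that rose then were Mrpl23, Mrpl40, Mrpl52, Mrps35, Mrpl30, Mrpl24, Mrps18c, Mrpl33 and Mrpl48, with changes between 0.28 and 0.8. Mrps7 fell by 0.26. Those called only there were named after their values were seen. The member median was then 0.0 against 0.15 over all tested genes.

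**Figure D3:**
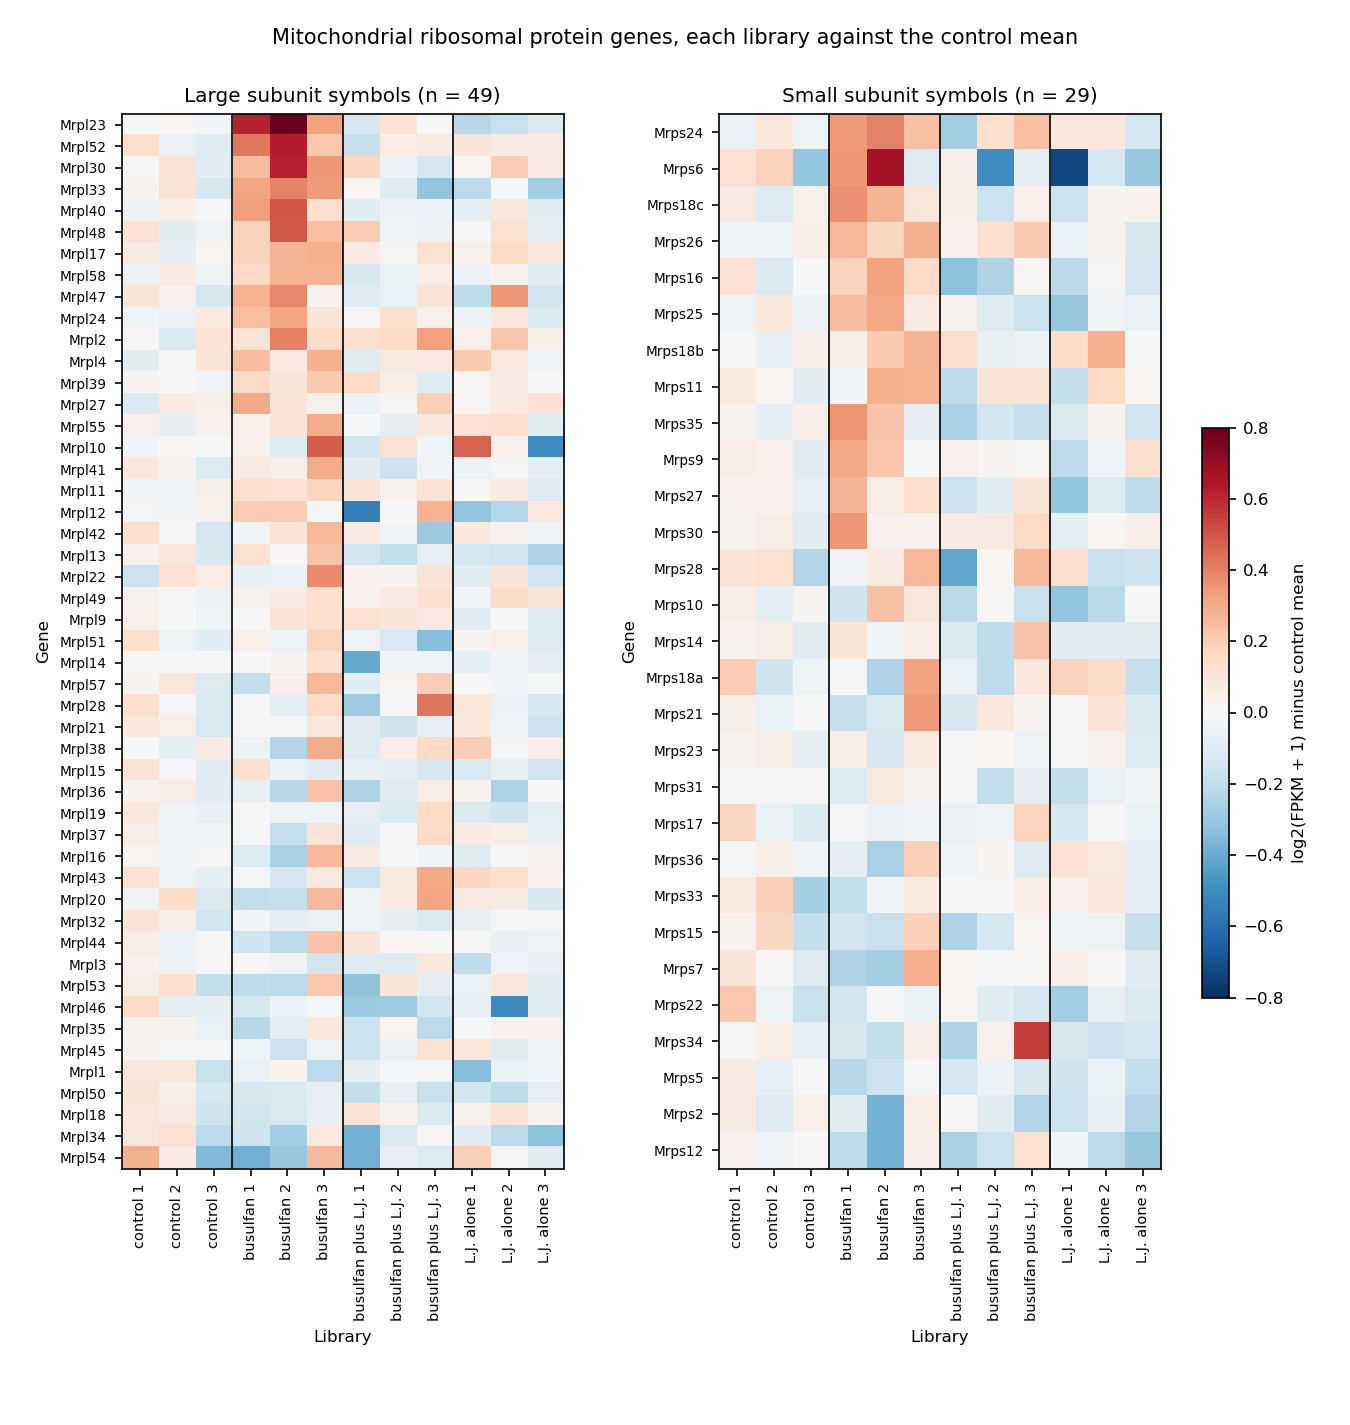
Each member (row) in each library (column) as log2(FPKM + 1) minus the control mean, from -0.8 (blue) to 0.8 (red), for 49 large and 29 small subunit symbols sorted by the change with busulfan. The upper rows are red mainly in the first and second busulfan library, and the third busulfan library is red over a different set of rows.

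The 250 bases before an annotated start are shown for 4 large subunit genes (RefSeq on GRCm38.p6, all on the plus strand). They are Mrpl23 and Mrpl33, the members called in either busulfan comparison, and Mrpl52 and Mrpl30, which had the smallest p-values with busulfan among the members that were not called. The windows are chr7:142532782-142533031 for Mrpl23, chr5:31613701-31613950 for Mrpl33, chr14:54426659-54426908 for Mrpl52 and chr1:37890227-37890476 for Mrpl30. The Mrpl23 window belongs to a start inside the gene as annotated. Capitals mark a motif match and the other letters are in lower case.
Mrpl23: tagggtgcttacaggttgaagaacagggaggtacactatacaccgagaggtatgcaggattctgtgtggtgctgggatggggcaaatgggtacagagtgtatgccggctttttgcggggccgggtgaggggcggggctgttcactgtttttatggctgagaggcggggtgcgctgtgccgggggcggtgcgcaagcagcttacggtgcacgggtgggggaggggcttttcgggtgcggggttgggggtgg
Mrpl33: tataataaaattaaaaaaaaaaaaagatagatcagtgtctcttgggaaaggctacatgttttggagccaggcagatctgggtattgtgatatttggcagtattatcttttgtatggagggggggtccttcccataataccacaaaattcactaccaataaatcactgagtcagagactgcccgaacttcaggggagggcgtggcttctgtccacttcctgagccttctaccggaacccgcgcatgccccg
Mrpl52: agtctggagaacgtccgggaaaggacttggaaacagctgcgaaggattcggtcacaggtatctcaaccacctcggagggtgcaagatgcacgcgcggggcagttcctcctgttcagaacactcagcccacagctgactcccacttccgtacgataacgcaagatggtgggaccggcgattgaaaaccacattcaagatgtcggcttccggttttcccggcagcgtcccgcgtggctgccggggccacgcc
Mrpl30: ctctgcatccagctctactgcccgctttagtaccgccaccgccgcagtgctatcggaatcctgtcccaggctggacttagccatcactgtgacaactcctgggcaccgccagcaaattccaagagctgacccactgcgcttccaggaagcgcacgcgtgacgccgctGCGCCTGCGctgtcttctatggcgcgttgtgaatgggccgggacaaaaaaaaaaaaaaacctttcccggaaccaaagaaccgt
The motifs were searched on both strands as GCGCNTGCG for NRF1, CCGGAAGT for ETS factors and AAGATGGCG for YY1, which do not contain one another. Of the 69 members with a window, 15 (21.7%) held the NRF1 letters, against 12.4% of 9700 tested genes with one. The ETS letters stood in 10 members (14.5%) against 6.6%, and the YY1 letters in 2 (2.9%), Mrps11 and Mrpl36, against 1.39%. At least 1 of the 3 motifs was found in 26 members (37.7%) and in 18.9% of the 9700 genes. The NRF1 and YY1 motifs were first searched with 1 letter more and shortened after that result was known. The longer forms stood in 10 members (14.5%) against 9.14% for NRF1 and in 1 member (1.45%) against 0.794% for YY1. Among the 4 windows shown, that of Mrpl30 held an NRF1 match.

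Adding L.J. to busulfan is compared with busulfan alone, and this comparison uses the same 3 busulfan libraries as the one above. Of the 78 members 2 fell and none rose (limma, adjusted p under 0.05), which is 2.56% against 3.24% of all tested genes (1.18% higher and 2.06% lower). The genes that fell were Mrpl23 and Mrpl33, both small proteins of the large subunit with bacterial counterparts. The member median was -0.08, in each subunit as well, against -0.09 over all tested genes, and it turned to 0.05 with the length and GC correction.

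Mrpl23 had 23.0, 27.4 and 25.3 FPKM with busulfan plus L.J., all below the busulfan values of 39.4, 50.7 and 31.8 FPKM. The change was -0.64 (SE 0.14, limma adjusted p = 0.0421). Mrpl33 (gene 66845, chr5:31613951-31622644 on the plus strand, mm10) had 42.7, 45.3 and 43.4 FPKM with busulfan. With L.J. added it had 34.5, 31.8 and 27.3 FPKM, again with no overlap, while the control libraries had 34.6, 36.7 and 31.2 FPKM. The change was -0.48 (SE 0.11, limma adjusted p = 0.0437). Its busulfan values differed little among the 3 libraries, and without the third the change was -0.49 (limma adjusted p = 0.0105). For both genes the call was lost when any one of the other 11 libraries was left out, and the length and GC correction reduced the changes to -0.37 for Mrpl23 and -0.17 for Mrpl33. A processed transcript overlaps an exon of Mrpl33 on the same strand.

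**Figure D4:**
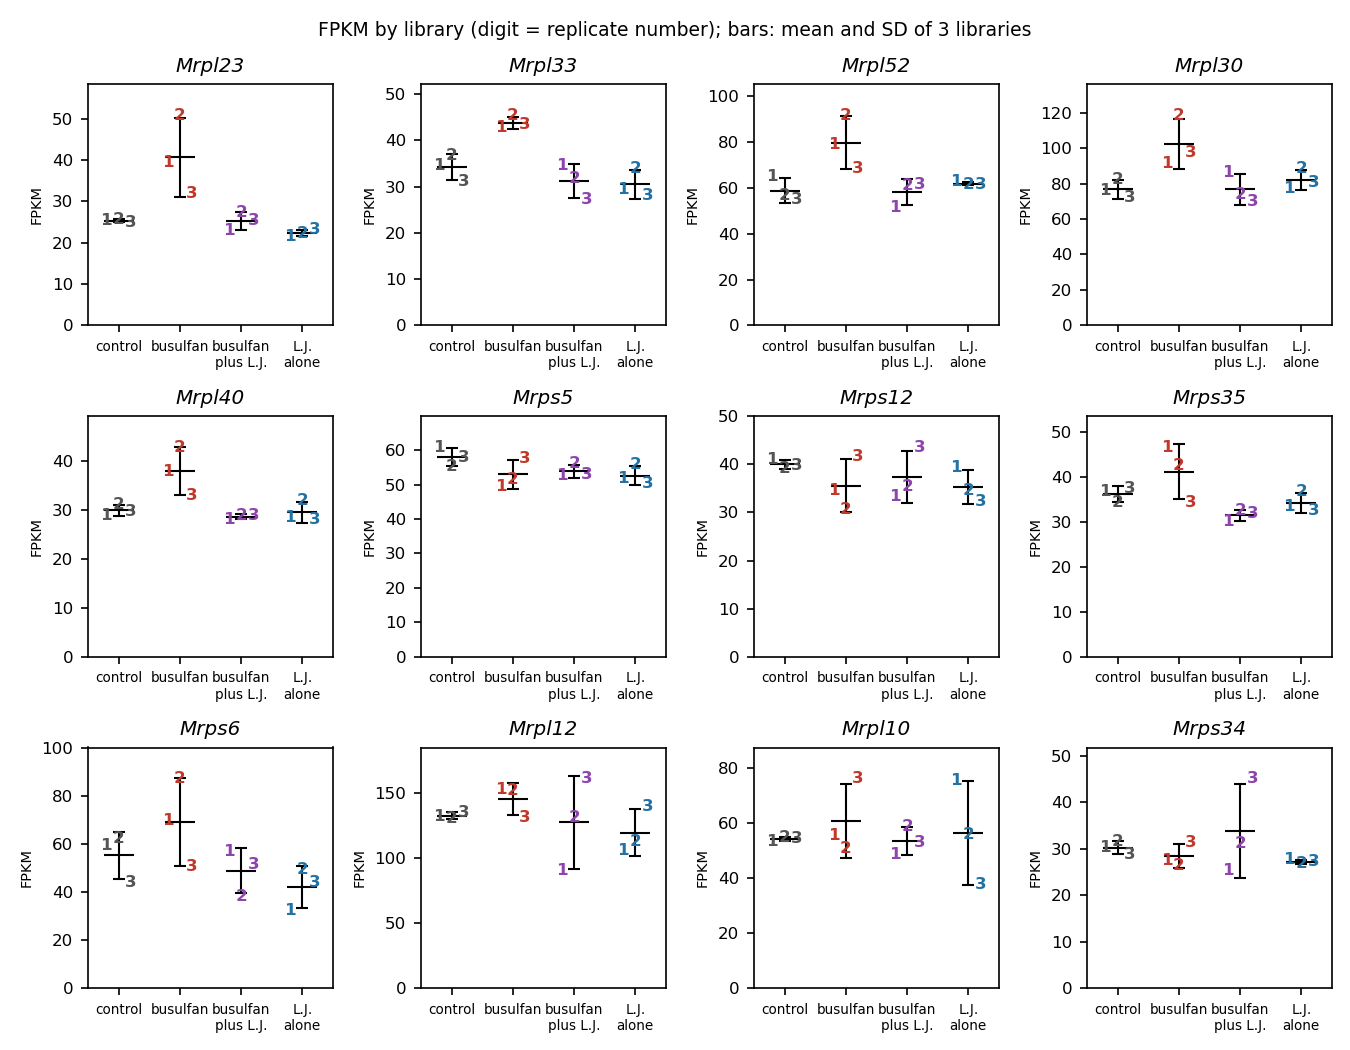
FPKM of 12 members in every library, with the digit giving the replicate number and bars for the mean and SD of 3 libraries, each panel from 0. Mrpl33 is the panel in which all 3 busulfan libraries lie close together (42.7 to 45.3 FPKM) above the other groups, while in Mrpl23, Mrpl52 and Mrpl40 the third busulfan library is the lowest of its group.

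Mrpl40 had 28.0, 28.9 and 28.9 FPKM with busulfan plus L.J., all below the busulfan values, at a change of -0.39 (SE 0.1, limma adjusted p = 0.053). Mrps16, a small subunit protein of bacterial descent, had 36.3, 38.7 and 46.1 FPKM against 52.2, 57.6 and 51.1 FPKM with busulfan. That gene and Mrpl52 also kept apart in their groups, with changes of -0.41 and -0.44 and limma adjusted p-values of 0.0587 and 0.0548. Without the third busulfan library Mrpl40, Mrps16 and Mrpl52 were called, at -0.48, -0.44 and -0.55 (limma adjusted p = 0.00206, 0.0167 and 0.00368). With the length and GC correction the changes of these genes were -0.18, -0.32 and -0.05 (limma adjusted p = 0.274, 0.132 and 0.78). Among members with a positive difference, Mrpl18 had 70.3, 66.7 and 59.99 FPKM against 58.5, 59.7 and 62.5 FPKM. Mrpl20 had 80.2, 87.0 and 103 FPKM against 72.1, 72.5 and 99.2 FPKM. Both overlapped with busulfan alone, at differences of 0.12 (Mrpl18, limma adjusted p = 0.437) and 0.16 (Mrpl20, adjusted p = 0.512). With the third busulfan library left out, they were 0.15 and 0.31 (limma adjusted p = 0.254 and 0.0662).

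In this comparison 15 members were lower at an unadjusted p under 0.05 and 0 were higher, where 15.8 and 7.58% of all tested genes were. Without the third busulfan library 17 were lower and 4 higher (33.1 and 11.1% of all tested genes), and with the length and GC correction 6 were lower and 12 higher (10.1 and 11.8%). The groups did not overlap for 17 members (21.8%), all lower with L.J., against 12.1% lower and 7.14% higher over all tested genes. When the third busulfan library was left out, these were 23 lower (29.5%) and 8 higher (10.3%), against 40.7 and 15.1% of all tested genes. Of the 17 in all libraries, 13 were large subunit and 4 small subunit genes. The change was above 0 for 23 of 78 members and 36.2% of all tested genes, for 33 members and 31.4% without the third busulfan library, and for 53 members and 49.5% with the length and GC correction. With the third busulfan library left out, 31.6% of all tested genes (7.98% higher and 23.6% lower) and 13 members (16.7%) were called. Of the 13, 11 fell, with changes from -0.25 (Mrpl58) to -0.8 (Mrpl23), and Mrps7 and Mrpl44 rose by 0.26 and 0.22. The large subunit genes among the 11 were Mrpl23, Mrpl52, Mrpl33, Mrpl40, Mrpl30 and Mrpl58. The small subunit genes among them were Mrps35, Mrps6, Mrps16, Mrps25 and Mrps18c.

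L.J. alone against control asks what L.J. did without the drug. No member and no tested gene was called (0.0%), and 0 members had an unadjusted p under 0.05 in limma, where 1.09% of all tested genes were higher and 1.65% lower. With library quality weights 0 members were called as well. The member median was -0.03, as was that over all tested genes, with -0.02 for the large and -0.07 for the small subunit. The change was above 0 for 5 of 29 small subunit genes and 19 of 49 large subunit genes, and for 39.9% of all tested genes. The groups did not overlap for 7 members, all lower, against 8.22% lower and 4.74% higher over all tested genes.

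The smallest p-value was that of Mrps27, with 12.2, 12.2 and 11.3 FPKM in control and 9.43, 10.96 and 10.2 FPKM with L.J. alone (difference -0.21, SE 0.1). Mrpl13, a large subunit protein of bacterial descent, had 61.4, 63.8 and 54.7 FPKM in control and 54.2, 53.8 and 50.3 FPKM with L.J. (difference -0.18, SE 0.09). In both genes all L.J. values lay below all controls. Mrpl46 had 29.5, 25.0 and 25.2 FPKM against 25.2, 18.3 and 24.8 FPKM, where the second L.J. library alone lay far below the controls. On the higher side Mrps18b had 35.6, 33.8 and 36.6 FPKM in control and 39.6, 43.3 and 35.3 FPKM with L.J., a difference of 0.15 with overlap. Mrpl17 and Mrpl49 differed by 0.09 and 0.07. For each of these 6 genes the limma adjusted p was 0.999.

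Busulfan plus L.J. against control compares the kidneys given both agents with controls. Again 0 members were called, where 0.00814% of all tested genes were, and 0 members had an unadjusted p under 0.05 in limma (1.35% of all tested genes higher, 1.51% lower). The member median was -0.02 against 0.0 over all tested genes. Mrpl46 had 21.4, 21.6 and 23.7 FPKM, all below the controls (difference -0.24, SE 0.12). Mrpl2 had 48.9, 49.9 and 56.4 FPKM against 45.0, 41.0 and 48.3 FPKM in control, with no overlap (difference 0.2, SE 0.1). Mrps35 had 30.1, 32.6 and 31.8 FPKM against 36.9, 34.3 and 37.5 FPKM in control, also apart (difference -0.2, SE 0.11). The limma adjusted p was 1.0 for each of the 3. By p-value the next positive differences were those of Mrps26 (0.13) and Mrpl9 (0.1), and the next negative one that of Mrps16 (-0.19).

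The groups did not overlap for 3 members with the treated libraries higher (Mrpl2, Mrpl9 and Mrps30) and 4 with them lower (Mrpl40, Mrpl14, Mrpl46 and Mrps35), against 5.63 and 4.46% of all tested genes. For Mrpl23 the mean was 25.2 ± 2.18 FPKM with busulfan plus L.J. and 25.3 ± 0.362 FPKM in control (SD, n = 3), a difference of -0.01 (SE 0.14). For Mrpl33 it was 31.2 ± 3.68 against 34.2 ± 2.81 FPKM, a difference of -0.13 (SE 0.11).

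Whether L.J. had another effect beside busulfan than on its own was tested as an interaction. None of the members was called, where 0.0163% of all tested genes were, and the median was -0.04 against -0.05 over all tested genes, turning to 0.11 with the length and GC correction. In limma 6 members had an unadjusted p under 0.05, all negative (Mrpl52, Mrpl30, Mrpl40, Mrpl23, Mrpl17 and Mrps18b), against 7.28% negative and 4.42% positive among all tested genes. The value was above 0 for 30 of 78 members and 42.6% of all tested genes, and with the length and GC correction for 54 members and 50.6%. The lowest was Mrpl52, at -0.52 (SE 0.16, limma adjusted p = 0.296), followed by Mrpl30 at -0.51, Mrpl23 at -0.47 and Mrpl40 at -0.36. With the length and GC correction these values were -0.11, -0.42, -0.19 and -0.16 in the same order. The smallest p-values with a positive sign were those of Mrps34 (0.35), Mrps5 (0.16) and Mrps12 (0.25). Without the third busulfan library 12.1% of all tested genes (4.12% higher and 8.0% lower) and 4 members (5.13%) were called, namely Mrpl23, Mrpl52, Mrpl40 and Mrps35, with values from -0.63 to -0.41. At an unadjusted p under 0.05 there were then 7 negative and 4 positive members, against 20.6 and 8.62% of all tested genes.

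Some members varied between libraries of a single group more than between groups. The gene of the widest range was Mrps6, a small subunit protein of bacterial descent, named after its values were seen. It had 59.6, 62.4 and 43.9 FPKM in control, 69.7, 87.1 and 50.8 in busulfan, 56.8, 38.4 and 51.7 in busulfan plus L.J. and 32.5, 49.4 and 44.2 in L.J. alone. Its highest library was 2.68 times its lowest, and its groups overlapped, except that the busulfan values (50.8 FPKM and above) lay over those of L.J. alone (49.4 FPKM and below). Mrpl10 had 53.4, 54.7 and 54.2 FPKM in control but 75.3, 55.8 and 37.8 FPKM with L.J. alone, a ratio of 2.01 between its extremes over all libraries. Mrpl12 had 132, 130 and 136 FPKM in control and 90.4, 131 and 161 FPKM with busulfan plus L.J. In the same group Mrps34, a small subunit protein found only in mitochondria, had 25.4, 31.1 and 45.0 FPKM. In both genes the first library of that group was its lowest and the third its highest. Exons of Mrpl10, Mrpl12 and Mrps34 overlap genes on the opposite strand, and the strand setting of the counting is not given in the sources used here, so that reads of the 2 strands may not be separated. Overlap on the opposite strand holds for 28 of the 78 members. On the same strand, exons of Mrps6 overlap those of Slc5a3 and Gm49711, and exons of Mrps34 overlap those of Nme3. Same-strand overlap is found for 8 members, and no strand setting separates the reads there.

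The genes fixed by their role differed in how steady they were. Mrpl2 had means of 44.8, 52.3, 51.7 and 48.2 FPKM in the order control, busulfan, both agents and L.J. alone, and Mrps12 had 40.0, 35.6, 37.4 and 35.3 FPKM. Mrpl3 had means of 20.6, 19.8, 20.0 and 19.1 FPKM in control, with busulfan, with both agents and with L.J. alone. Mrpl45 had 19.5, 18.4, 19.1 and 19.4 FPKM and Mrpl44 had 27.5, 26.9, 28.3 and 26.9 FPKM. Mrps7 had means of 54.4, 52.4, 54.4 and 54.1 FPKM, but its busulfan libraries had 45.7, 44.7 and 66.7 FPKM, on either side of the controls, and its fall without the third is given above. Mrpl58 showed no overlap between busulfan and control. It had 45.2, 49.5 and 45.9 FPKM in control, 52.4, 56.8 and 56.9 FPKM in busulfan and 42.9, 45.2 and 48.9 FPKM with L.J. added. Its changes of 0.24 with busulfan and -0.27 with added L.J. did not pass the threshold (limma adjusted p = 0.121 and 0.0751). When the third busulfan library was left out, they were 0.22 and -0.25 (limma adjusted p = 0.0661 and 0.0371). Of the Mrps18 paralogs, Mrps18c had 46.9, 41.1 and 45.7 FPKM in control and 57.7, 54.0 and 47.4 FPKM in busulfan (0.24, limma adjusted p = 0.188), whereas Mrps18a differed by 0.02 and Mrps18b by 0.18.

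Other genes of mitochondrial translation were taken from a list of 88 genes, of which 85 were tested. With busulfan 1 of them fell and none rose against control, where 0.717% of all tested genes fell, and with L.J. added 2 rose and none fell, where 1.18% rose. With the third busulfan library left out, 10 rose and 12 fell with busulfan, where 24.4% of all tested genes rose and 8.12% fell. When L.J. was added, 12 rose and 14 fell without that library, where 7.98% of all tested genes rose and 23.6% fell. In the other 3 comparisons 0 of 85 were called in limma. In the interaction without that library 7 were called higher and 2 lower, against 4.12 and 8.0% of all tested genes. Gfm1, the elongation factor that moves the ribosome along the message, had 64.4, 66.6 and 61.5 FPKM in control, 44.6, 42.0 and 54.5 FPKM in busulfan and 61.8, 65.7 and 68.0 FPKM with L.J. added. The busulfan values lay below all others, and Gfm1 fell by 0.45 on the log2 scale (SE 0.1, limma adjusted p = 0.0486) and rose by 0.47 with L.J. added (limma adjusted p = 0.0421). Taco1, a translational activator of the mitochondrial Cox1 message, had 21.0, 19.8 and 17.4 FPKM in control, 15.0, 13.9 and 16.2 FPKM in busulfan and 19.4, 19.4 and 20.8 FPKM with L.J. added. It rose by 0.38 with L.J. (limma adjusted p = 0.0492) and had not passed against control (-0.34, adjusted p = 0.0736). These calls too were lost when any library other than the third busulfan library was left out. Without the third, Gfm1 changed by -0.56 and then 0.58 and Taco1 by -0.4 and then 0.43 (limma adjusted p = 0.000606, 0.000519, 0.00903 and 0.00612).

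By group, the median change with busulfan was -0.02 over 14 translation factors, -0.06 over 22 aminoacyl-tRNA synthetases, 0.06 over 26 assembly and ribosomal RNA modification genes, and 0.04 over 18 genes of mitochondrial transcription and its regulation. The 5 ribosomal proteins without an Mrp symbol had a median of 0.15. Among them was Dap3, a GTP-binding protein of the small subunit named after its values were seen, with 30.4, 30.5 and 29.1 FPKM in control and 38.5, 37.4 and 34.1 FPKM in busulfan (0.28, limma adjusted p = 0.193). Without the third busulfan library its change was 0.33 (limma adjusted p = 0.071).

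Several lists of cell type markers differed between groups or between libraries of a group, and their part in the results above was not tested. The 6 intercalated cell markers had a summed level of 214, 233 and 111 FPKM in the busulfan libraries, against 91.7 to 103 FPKM in control, and none was at 0 in any of these libraries. The 6 principal cell markers summed to 272, 289 and 187 FPKM in busulfan and 168 to 177 FPKM in control. The 5 androgen-regulated proximal tubule genes summed to 12250, 6370 and 54579 FPKM in busulfan and 36178 to 52328 FPKM in control. In these 3 lists the first and second busulfan library stood apart from the third. The 5 distal convoluted tubule markers were above control in all 3, at 577, 474 and 451 FPKM against 322 to 427 FPKM. The intercalated and principal cell sums also lay above all controls in each busulfan library, though least in the third. The 8 general proximal tubule markers summed to 3804 to 5139 FPKM in busulfan and 3969 to 5108 FPKM in control, which overlap. The 6 liver markers moved with L.J. and not with busulfan. They summed to 37.3 to 89.0 FPKM in control and 38.6 to 75.3 FPKM in busulfan, against 12.6 to 18.5 FPKM with both agents and 10.6 to 19.4 FPKM with L.J. alone. The 5 fat markers varied widely within groups, at 465, 269 and 55.1 FPKM with both agents and 77.9, 336 and 155 FPKM with L.J. alone. So did the 5 red cell markers, at 2247, 575 and 3518 FPKM in busulfan.

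The third busulfan library also differed from the others in how its values depended on the transcript. Among the members, its difference from the mean of all 12 libraries had a Spearman rho of -0.43 with transcript length. With GC content rho was 0.35, in both cases over 78 genes that share the library. In the first and second busulfan library rho with length was 0.21 and 0.09. Against the control mean, the 46 members with transcripts under 1500 bp had a median of 0.19 in the third library. The 32 longer ones had a median of 0.08. The corresponding medians were -0.02 and 0.04 in the first and -0.01 and 0.04 in the second library. Length here is that of the longest annotated transcript, which need not be the one measured. For several members it exceeds the span of the gene in RefSeq. Examples are Mrps26 (4278 bp, chr2:130563757-130565394) and Mrps17 (5061 bp, chr5:129715450-129718712), and the same holds for Mrpl51, Mrpl32, Mrps16 and Mrpl57. With the correction for length and GC content 0 members were called in limma in any comparison, and 0 of all tested genes with busulfan and 9 (0.0733%) with L.J. added to busulfan.

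**Figure D5:**
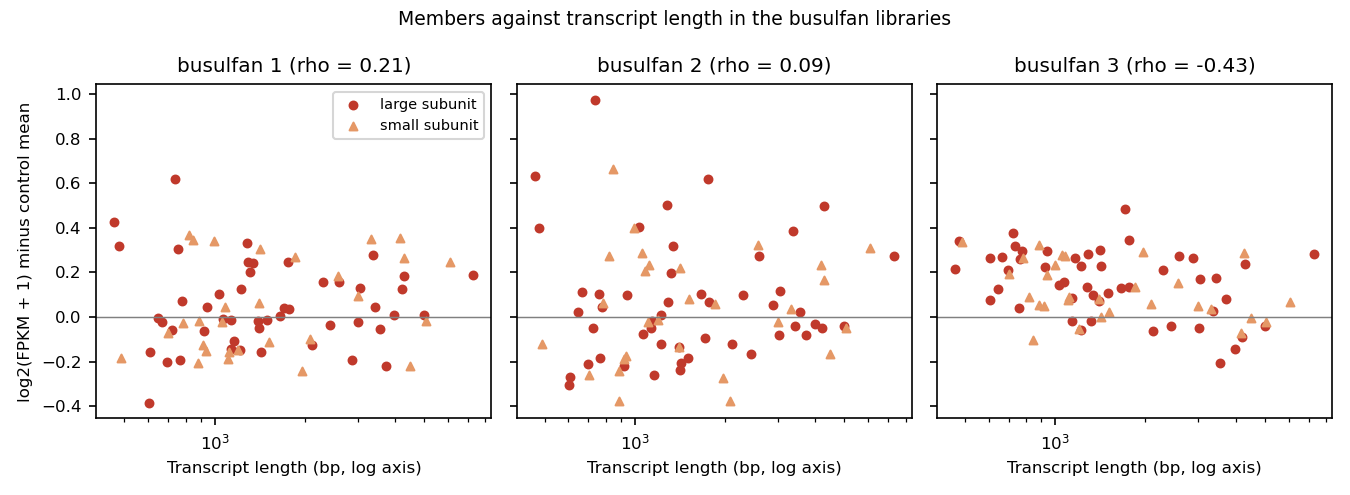
Each member's log2(FPKM + 1) minus the control mean against its transcript length in bp (log axis) in the 3 busulfan libraries, with circles for large and triangles for small subunit genes. The points slope down in the third library (rho -0.43) and show no such slope in the first (0.21) and second (0.09).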

How the data were processed

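RNA was measured in 12 kidney libraries, 3 in each of 4 groups given by the labels. The authors deposited 1 table of FPKM values per gene and library, per the file headers. Bowtie 0.12.2 and the build mm10 are named in the submitters' processing notes. The counting tool, its strand setting and the annotation were not given in the sources used here. Among the symbols, 26 appeared as calendar dates and were replaced by the symbol of their gene identifier, and 1 repeated symbol was removed; 20840 identifiers were found in RefSeq.

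From these values log2(FPKM + 1) was computed for the 12281 genes that reached 1 FPKM in 3 or more libraries. limma 3.58.1 (R 4.3.3) fitted 1 mean per group over all 12 libraries with a trended variance, and p-values were adjusted by Benjamini-Hochberg over all tested genes, two-sided, and called under 0.05. A log2 change on this scale understates changes of low genes. The 5 comparisons set busulfan, L.J. alone and both agents each against control, set both agents against busulfan, and tested the interaction. Transcript length and GC content, from the longest protein-coding GENCODE transcript, were known for 99.0% of tested genes, and a lowess correction of each library for both was an alternative, beside quantile normalization, library weights, a pseudocount of 0.1, testing without the filter, only the groups compared, a replicate block and each library left out. The fit was also run on simulated data, with added changes larger than that of any member and the same spread in all groups. That run does not show how well changes of the size reported here are found. Python 3.11.15 with pandas 2.3.3 was used for tables, and matplotlib 3.10.9 for plots.

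Members described with values are called members, the 3 of smallest p in each direction of a comparison with fewer than 3 called, the 2 highest and lowest per subunit, those fixed by their role, and the 3 in which a single library deviated most from its group mean; exceptions are marked where they are named. The members and gene lists were chosen with earlier results of these data known, and no test was run over a list. Depth was estimated only relatively, from 350 genes of low value kept for their similar values across libraries, so that no counting interval is given.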

Additional observations from a re-analysis of the deposited data

How the results depend on the processing

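The count of members called with busulfan against control, 1, was 0 with no filter on low values, with only the groups compared and with the length and GC correction, and 20 with library weights; leaving out each library in turn gave 0 to 10. For L.J. added to busulfan, 2 became 0 under the same 3 settings and 17 with library weights, with 0 to 13 when a library was left out. The interaction went from 0 to 6 with library weights and 0 to 4 when a library was left out. With library weights 5240 and 4945 of all tested genes were called with busulfan and with L.J. added to it, against 177 and 398. For the interaction 2422 of all tested genes were called with library weights, against 2. The upper ends all came from leaving out the third busulfan library; without any one of the other 11, 0 members were called with busulfan.

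The median member change with busulfan, 0.05, was -0.01 with quantile normalization and -0.08 with the length and GC correction. With L.J. added to busulfan, -0.08 became -0.02 and 0.05, and -0.14 to -0.04 when a library was left out. For the interaction, -0.04 became 0.11 with the length and GC correction and -0.1 to 0.0 when a library was left out. The other medians moved by less than 0.056, the pooled SD between libraries. For L.J. added to busulfan Mrps34 reversed from 0.21 to -0.01 without the third busulfan plus L.J. library, in a range up to 0.39.

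With the replicate number as a block, 0 members were called in either busulfan comparison, also with the length and GC correction, where the medians were -0.08, 0.05 and 0.11 for busulfan, L.J. added to busulfan and the interaction. The labels do not say whether the numbers pair the libraries. Of 18 same-numbered pairs 0 had a correlation above 0.1, and the values ran from -0.239 to 0.081. These are deviations from means of only 3 libraries, so that low values cannot exclude a pairing. Causes were not tested.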
